A study of Rattus norvegicus with 145 samples.

Results

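Acetamide given by gavage at 1000 mg/kg/day (mkd) for 28 days was compared with water vehicle in female Wistar rats (strain Crl:WI), using RNA-Seq of the left liver lobe. The comparison used every library labelled female, 28 days and either 1000 mkd or 0 mkd, which were 5 treated and 5 control libraries, or 10 of the 145 in the series. The labels give an age of 8 to 10 weeks, which the study's methods give for the rats entering gavage. It is not their age at sampling. The rats carried no engineered allele, and were killed on day 29, a day after the last dose and after an overnight fast. Control rats were gavaged on the same schedule with water alone. Each library came from 1 rat, and the rats were housed in shared cages whose pairing is not in the labels. The 20 other female libraries of day 29 (300, 500, 750 and 1500 mkd) entered the fit to steady the estimate of the spread between rats, and the female rats of day 8 and the male rats of day 29 served for comparison.

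Adult hepatocytes rarely divide, and a liver at rest therefore holds little RNA from genes that are switched on only during the cell cycle. Genes of DNA replication are transcribed from the G1/S border under E2F factors, while genes of the mitotic spindle and chromosome segregation follow in G2 and M under the DREAM and MuvB complexes with MYBL2 and FOXM1. The liver is also the main site of fatty acid and cholesterol synthesis, which depend on SREBP transcription factors and on insulin and feeding. Around the hepatocytes lie stellate cells and fibroblasts, which make collagen and other matrix, and resident macrophages.

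Reads assigned to genes ranged from 23461565 to 34018491 in the control libraries and from 24737781 to 28728900 at 1000 mkd. The male-specific transcript Eif2s3y had at most 2 counts in each of the 10 libraries. The Y gene Ddx3y, which has a close copy on the X chromosome, had 107 to 325 counts, and reads of such copies cannot be told apart here. The female-predominant P450 Cyp2c12 lay between 1670 and 5690 CPM (reads scaled to a common total of reads on genes). All 10 hepatocyte markers were measured. The composition of the libraries moved with the group: TMM scaling factors, which correct for a few abundant transcripts taking up reads, were 0.735 to 1.02 in controls and 1.01 to 1.12 at 1000 mkd. The lowest were those of control rats 4 and 5 (0.774 and 0.735), in which albumin (Alb) took 21.6% and 21.9% of the reads against 11.8% to 15.8% in the other 8 libraries. Levels below are CPM after this scaling. In a bulk sample, fewer cells of a type and less RNA per cell cannot be told apart.

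A gene was called differentially expressed (DEG) when its fold change was at least 1.5 in either direction and its Benjamini-Hochberg adjusted p, from the quasi-likelihood test of edgeR, was at most 0.05. Here and below, calls and passing refer to this edgeR test unless DESeq2, the study's own tool, is named. Among the named genes checked with both, DESeq2 called 21 that edgeR did not and dropped 0. Not passing is therefore an outcome of edgeR and can differ by tool. Of 11451 genes tested, 141 were called higher (1.23%) and 41 lower (0.358%) at 1000 mkd. Of the 182 DEGs, 84 changed by less than 2-fold and 25 by more than 4-fold, and in 129 of them every treated rat lay beyond every control rat. That was so for 521 of all the genes tested (4.55%). Many adjusted p-values lay close to 0.05, so the count moved with single rats: 13 genes were called without control rat 1, 313 without control rat 2, 424 without control rat 3, 56 without control rat 4 and 35 without control rat 5. Without treated rats 1 to 5 in turn the counts were 123, 74, 73, 13 and 137. Without control rats 4 and 5 together, 21 genes were called, of which 12 were higher and 9 lower. Of the 182 DEGs, 180 kept their sign, and 179 kept an unadjusted p under 0.05, in each of the 10 fits that left out 1 rat. The DEGs had been picked for small p-values in these same rats, and each of these fits shares most of them. Both counts were therefore largely set in advance and do not test how steady the changes are. Over all genes tested, 2219 had an unadjusted p under 0.05 (19.4%), of which 1188 were higher and 1031 lower. The list counts at that level below are to be read against these, a count of 1 direction against the genes of that direction. In each of the 10 fits 11 genes were called, among them Abcb1b, App, Bgn, Cdkn2c, Gbe1, Gria3, Mybl2, Pdgfrb, Tacc3 and Trerf1, a set picked out after its values were seen.

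**Figure D1:**
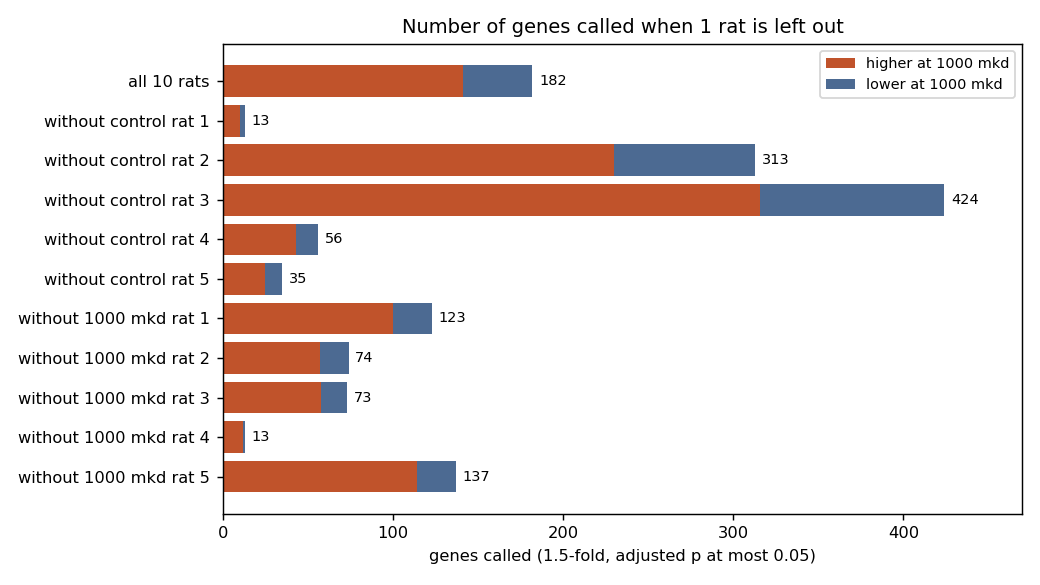
Number of genes called (horizontal axis) with all 10 rats and with each rat left out in turn (1 bar each), split into genes higher and lower at 1000 mkd. The bars run from 13 genes without control rat 1 or treated rat 4 to 424 without control rat 3, and higher genes outnumber lower ones in every bar.

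**Figure D2:**
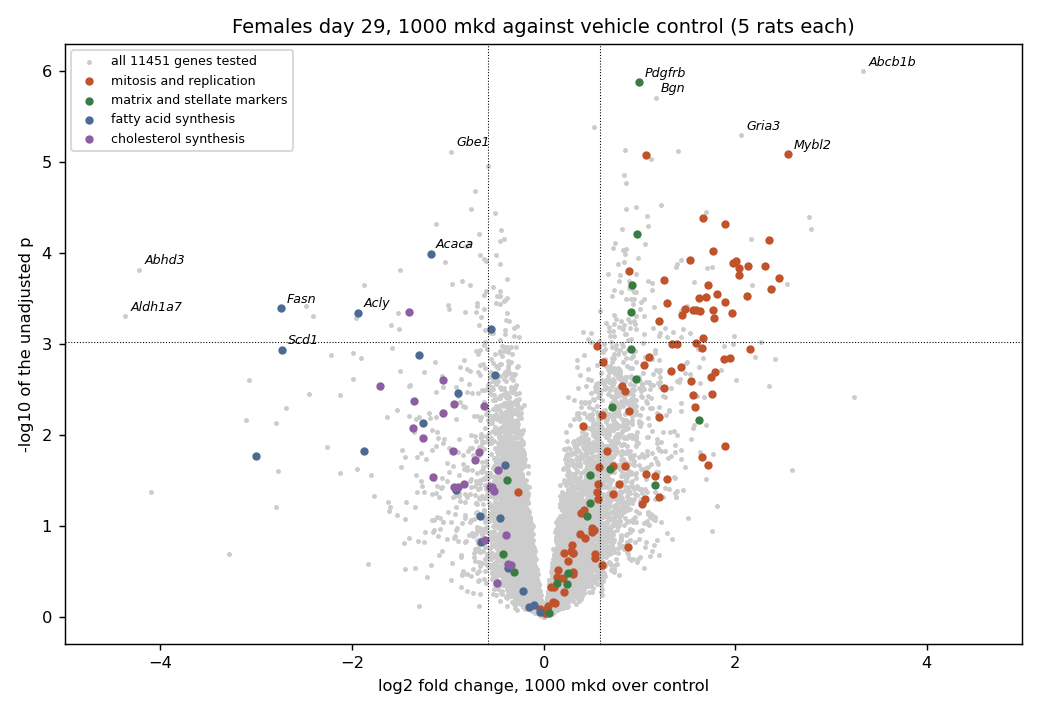
Each point is 1 of the 11451 genes tested, with the log2 fold change of 1000 mkd over control on the horizontal axis and -log10 of the unadjusted p on the vertical axis; dotted lines mark the 1.5-fold limits and the largest p of a called gene. Mitosis and replication genes lie mostly to the right, and fatty acid and cholesterol synthesis genes to the left.

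Genes of mitosis made up the largest group of DEGs among the lists. Of 81 listed mitosis genes 70 were tested, all 70 had a positive log2 fold change, 30 were called higher, 40 did not pass, none was called lower, and the median log2 fold change was 1.51 against -0.01 over all genes tested. Of 43 replication genes tested, 41 had a positive fold change, 4 were called higher (Mcm3, Mcm5, Mcm6 and Chaf1b), and the median was 0.56. Of 17 tested genes of recombination repair, 3 were called higher (Brca2, Rad54l and Exo1), with a median of 0.78. The average level of the 113 tested mitosis and replication genes, as mean log2 CPM, was 0.38 to 0.72 in the 5 controls and 1.38 to 1.76 in the 5 treated rats, so the groups did not overlap. With 1 rat left out the mitosis median stayed between 1.35 and 1.59, but the number called fell to 2 without control rat 1, 5 without control rat 4, 6 without control rat 5, and 9, 17 and 2 without treated rats 2, 3 and 4. No mitosis gene was called once control rats 4 and 5 were both left out, where the median was 1.46.

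The promoters of these genes are shown because 34 mitosis and replication genes were called in the same direction. In the RefSeq promoter table (assembly GRCr8, 250 bases before to 50 after the gene start; the reads were counted on Rn6), 27 of the 34 called mitosis and replication genes had an entry, and Aurkb, Ccna2, Foxm1, Pbk, Sgol2, Tpx2 and Ube2c had none. Each promoter was searched on both strands for the cell cycle homology region (TTTGAA or TTCGAA), for CCAAT and for an E2F-like site (TTTCGCG). The cell cycle homology region was present in 16 of 23 mitosis promoters (69.6%) and in 0 of the 4 replication promoters, against 19.7% of all 33469 promoters in the table and 13.7% of the 9271 promoters of tested genes. CCAAT was found in 18 of 23 (78.3%) and 3 of 4 (75%), against 37.5% of all promoters and 38% of those of tested genes. The E2F-like letters occurred in 1 of 23 mitosis promoters and in 3 of 4 replication promoters, against 0.819% of all and 1.61% of those of tested genes. These are matches of letters and not measured binding. Uncalled members of the 2 lists were not searched as a group, so the shares do not tell whether called members differ from uncalled ones. In the 150 bases before the gene start of 6 members, written 5′ to 3′ on the gene's strand, the capitals mark matches to any of these motifs on either strand. A pair of neighbouring matches in Mki67 shares letters.

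Cdk1, chr20:19265143-19265292, plus strand: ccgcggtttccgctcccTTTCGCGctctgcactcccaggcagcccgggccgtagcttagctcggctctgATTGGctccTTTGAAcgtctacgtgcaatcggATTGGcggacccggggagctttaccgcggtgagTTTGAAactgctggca
Cdc20, chr5:137255800-137255949, minus strand: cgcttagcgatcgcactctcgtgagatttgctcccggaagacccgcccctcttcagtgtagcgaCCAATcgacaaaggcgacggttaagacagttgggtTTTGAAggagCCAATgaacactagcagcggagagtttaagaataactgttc
Mki67, chr1:199952594-199952743, minus strand: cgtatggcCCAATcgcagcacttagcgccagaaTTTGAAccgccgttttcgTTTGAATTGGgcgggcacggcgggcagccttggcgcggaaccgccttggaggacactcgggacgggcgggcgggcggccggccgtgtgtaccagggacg
Prc1, chr1:143659331-143659480, plus strand: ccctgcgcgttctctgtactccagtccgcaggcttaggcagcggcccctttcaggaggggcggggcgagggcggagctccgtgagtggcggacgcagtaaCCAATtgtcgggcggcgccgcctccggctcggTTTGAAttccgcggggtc
Mcm5, chr19:13488663-13488812, plus strand: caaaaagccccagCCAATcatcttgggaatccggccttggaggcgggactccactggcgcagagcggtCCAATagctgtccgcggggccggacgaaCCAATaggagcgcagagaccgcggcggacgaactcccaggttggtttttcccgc
Mcm6, chr13:42404353-42404502, minus strand: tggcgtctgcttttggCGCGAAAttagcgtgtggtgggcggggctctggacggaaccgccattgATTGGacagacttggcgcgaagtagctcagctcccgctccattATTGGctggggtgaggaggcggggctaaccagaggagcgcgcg

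Mki67, the proliferation marker Ki-67, measured 4.28, 4.46, 5.20, 4.24 and 6.08 CPM in control rats 1 to 5 and 12.4, 17.4, 13.0, 20.9 and 12.9 CPM in treated rats 1 to 5. All treated rats lay above all controls, and the change was 3.16-fold (log2 1.66, SE 0.34, adjusted p = 0.0192). The cyclin-dependent kinase Cdk1, whose promoter above holds all 3 motifs, was at 0.739, 0.754, 1.38, 0.734 and 1.72 CPM in controls and 3.29, 5.04, 4.07, 6.13 and 3.39 CPM at 1000 mkd (4.12-fold, adjusted p = 0.0274). Its partners moved with it: Ccna2 (cyclin A2) rose 4.12-fold and Ccnb1 (cyclin B1) rose 3.44-fold, again with no overlap between groups. Mybl2 encodes B-MYB, the MuvB partner that drives G2 genes. It was at 0.778, 1.31, 0.712, 0.285 and 0.800 CPM in controls and 5.21, 2.83, 6.21, 5.19 and 3.68 CPM at 1000 mkd. That was 5.85-fold (adjusted p = 0.0089), the strongest change among the called mitosis genes by fold. Foxm1, the other G2 regulator, rose 1.86-fold, from 2.35 ± 0.484 to 4.37 ± 0.655 CPM (SD, n = 5 each).

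Among spindle and chromosome segregation genes, Aurkb, the Aurora B kinase of the chromosomal passenger complex, rose from 0.737 ± 0.173 to 2.98 ± 1.02 CPM, and Plk1, the polo-like kinase, from 0.734 ± 0.228 to 2.43 ± 0.541 CPM (SD, n = 5 each). Prc1, which bundles microtubules in the spindle midzone, rose 3.94-fold, and Ndc80 of the outer kinetochore rose 5.49-fold from a low 0.237 CPM. Kntc1 and Knstrn, which act at the kinetochore, and Ckap2, a microtubule binder, rose 4.49-fold, 4.34-fold and 4.35-fold. Cdc20 and Ube2c, which serve the anaphase-promoting complex, rose 2.90-fold and 5.10-fold. Tacc3, a spindle protein, was the steadiest of them: 6.18, 6.98, 7.21, 5.99 and 5.60 CPM in controls against 11.2, 16.2, 13.2, 15.2 and 11.2 CPM at 1000 mkd (2.09-fold, adjusted p = 0.0089).

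Among replication genes, Mcm5, a subunit of the MCM helicase, was at 0.972, 1.28, 1.42, 1.43 and 2.00 CPM in controls and 4.21, 4.98, 7.61, 5.66 and 5.34 CPM at 1000 mkd (3.91-fold, adjusted p = 0.035). Mcm3 and Mcm6, of the same helicase, rose 3.02-fold and 3.10-fold, and Chaf1b, a chromatin assembly factor, rose 4.39-fold. In all 4, every treated rat lay above every control. The members next in order of p did not pass: Pole (DNA polymerase epsilon) was at 8.49 and 12.5 CPM (adjusted p = 0.0523), Cdc45 at 0.967 and 2.01 CPM (adjusted p = 0.063) and Mcm10 at 4.60 and 11.5 CPM (adjusted p = 0.0659). Without control rats 1, 4 or 5, or treated rats 2, 3 or 4, none of the replication genes was called.

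Genes that restrain the cycle and genes of the DNA damage response gave a mixed picture. Cdkn2c (p18), an inhibitor of CDK4 and CDK6, was at 0.778, 0.983, 1.22, 0.897 and 0.680 CPM in controls and 2.33, 2.89, 2.17, 2.93 and 1.69 CPM at 1000 mkd, with no overlap (2.63-fold, adjusted p = 0.0089). It belongs to no list and is named after its values were seen. Of 22 tested p53 targets, 0 were called by edgeR (3 had an unadjusted p under 0.05, and DESeq2 called 0), and the median log2 fold change was -0.05. Cdkn1a (p21), the best known of them, was at 30.3, 26.7, 11.1, 22.0 and 7.88 CPM in controls and 43.7, 43.5, 37.7, 64.7 and 63.9 CPM at 1000 mkd. Every treated rat lay above every control, yet the adjusted p was 0.142. Brca2, a recombination mediator, rose 1.80-fold, Rad54l 2.31-fold and Exo1, an exonuclease, 5.30-fold from 0.108 CPM. The checkpoint kinase gene Chek2 was at 2.16 ± 0.672 and 2.36 ± 0.263 CPM (adjusted p = 0.793), while Cenpw, a centromere gene (adjusted p = 0.0582), and Parpbp (adjusted p = 0.0707) lay above all controls in every treated rat without passing the test.

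**Figure D3:**
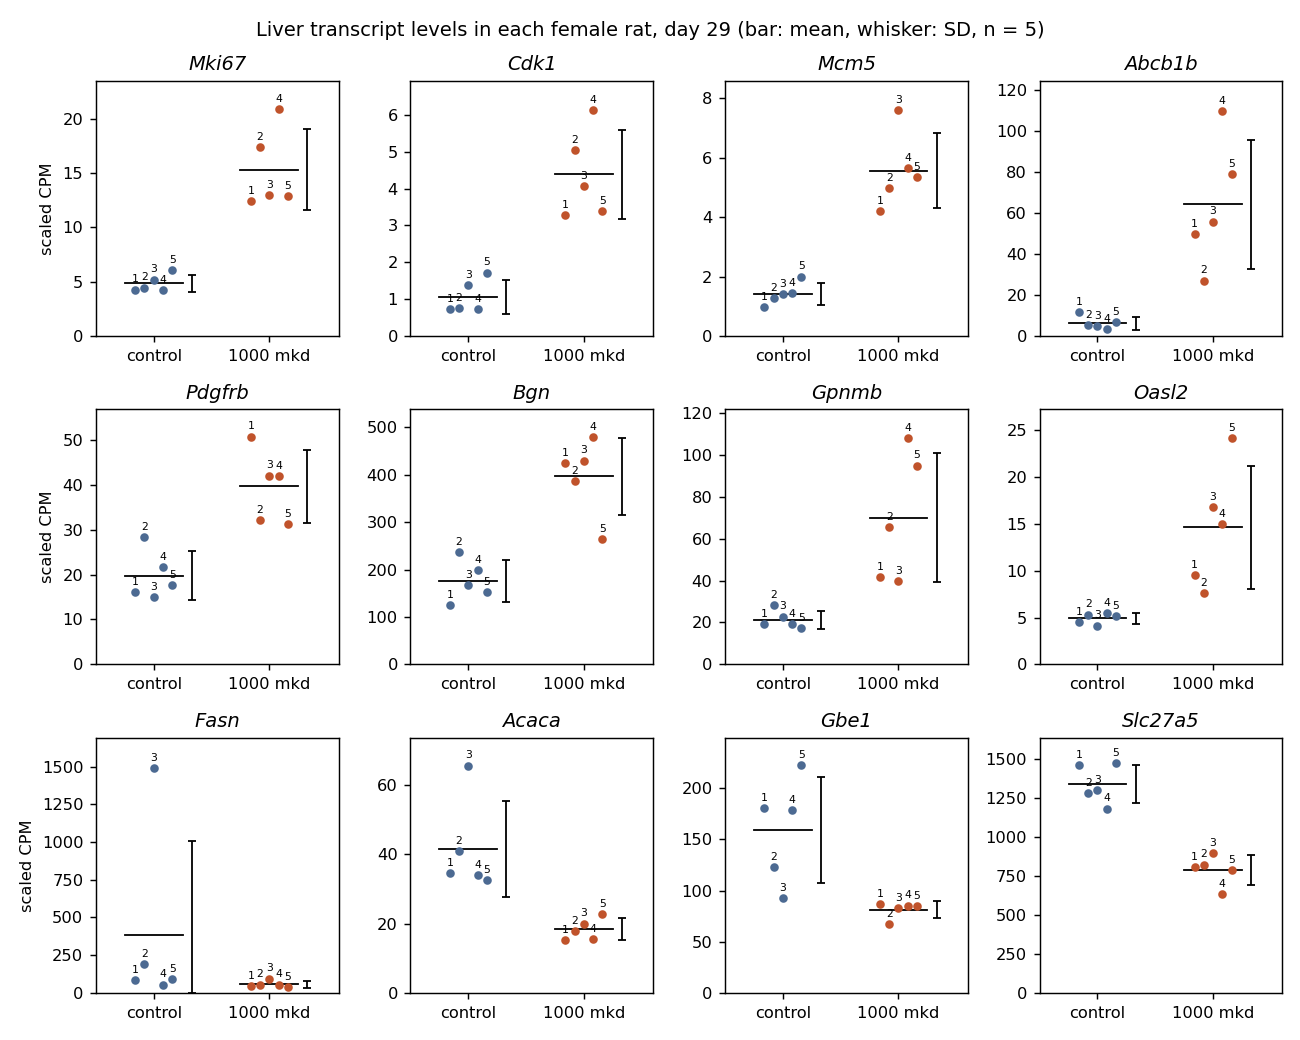
Scaled CPM (vertical axis, from 0) of 12 genes in each control and each 1000 mkd female on day 29; numbers give the rat, bars the mean and whiskers the SD of 5 rats (drawn no lower than 0). Groups do not overlap in 11 panels, while in Fasn the control mean rests on rat 3 at 1490 CPM.

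Abcb1b, which encodes a P-glycoprotein efflux pump, gave the largest rise among the DEGs. It was at 11.5, 5.41, 4.65, 3.22 and 6.88 CPM in control rats 1 to 5 and at 49.8, 27.1, 55.9, 110 and 79.2 CPM in treated rats 1 to 5. The groups did not overlap, and the change was 10.1-fold (log2 3.34, SE 0.54, adjusted p = 0.00757). Abcg3l3, an ABC gene outside the list of ABC efflux transporters, was also called higher (2.72 and 4.09 CPM, adjusted p = 0.035). It is named after its values were seen. Of the 9 tested members of that list, 7 had a positive fold change. Abcb1b was the only one of the 9 called in the main fit. Abcc5 (14.6 and 24.7 CPM, adjusted p = 0.0671), Abcg1 (8.96 and 15.2 CPM, adjusted p = 0.0792) and Abcc1 (1.04 and 1.56 CPM, adjusted p = 0.179) followed by p. Abcc3, a basolateral exporter of conjugates and bile salts, was at 13.2 ± 3.75 and 28.4 ± 7.98 CPM (adjusted p = 0.0924), with all treated rats above all controls. Gria3, an AMPA receptor subunit gene, was, with Abcb1b, the exception among the 10 largest rises with a mean of at least 1 CPM and no overlap, the other 8 being cell cycle genes. It was at 1.36, 1.15, 0.880, 0.612 and 1.32 CPM in controls and 5.32, 4.11, 4.81, 3.94 and 4.06 CPM at 1000 mkd (4.16-fold, adjusted p = 0.0089).

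Genes of the connective tissue formed another group of DEGs. Pdgfrb, the PDGF receptor of stellate cells and pericytes, was at 16.1, 28.3, 15.0, 21.7 and 17.6 CPM in controls and 50.7, 32.1, 42.0, 41.9 and 31.3 CPM at 1000 mkd, with no overlap (2.00-fold, log2 1.00, SE 0.16, adjusted p = 0.00757). Of 12 tested matrix genes 3 were called, all higher: Col3a1 (collagen III) rose from 173 ± 59.3 to 325 ± 113 CPM, Col5a1 (collagen V) from 19.5 ± 8.31 to 38.4 ± 8.09 CPM and Mmp2 (gelatinase A) from 7.10 ± 2.03 to 13.4 ± 4.01 CPM (SD, n = 5 each). In each of the 3, 4 of 5 treated rats lay above all controls, so the groups touched. Fn1 (fibronectin), which hepatocytes also make, was at 1670 and 1280 CPM (adjusted p = 0.208). Bgn and Pdgfra, outside the lists and named after their values were seen, belong to the same tissue. Bgn (biglycan, a matrix proteoglycan) was at 125, 237, 167, 199 and 152 CPM in controls and 425, 386, 430, 480 and 264 CPM at 1000 mkd (2.26-fold, adjusted p = 0.00757), and Pdgfra rose 2.12-fold (adjusted p = 0.0192). Igfbp3, an IGF carrier made by non-parenchymal liver cells, rose 1.91-fold from 63.0 ± 5.92 CPM. The matrix calls were less steady than those of Pdgfrb and Bgn: no matrix gene was called without control rat 1, without control rat 5, without treated rat 4 or without control rats 4 and 5 together, nor with the 10 libraries fitted alone.

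Markers of other liver cells were counted in the same way. Of 8 stellate markers 1 was called (Pdgfrb), with a median log2 fold change of 0.81, and their summed level was 65.9 to 131 CPM in controls and 113 to 199 CPM at 1000 mkd. Reln, Hand2 and Lrat were next by p, at 1.88-fold, 1.95-fold and 1.64-fold (adjusted p = 0.0533, 0.0707 and 0.0909). Of 12 macrophage markers 11 had a positive fold change and none was called by edgeR (8 had an unadjusted p under 0.05, and DESeq2 also called 0). Their median was 0.60 and their sum ran from 1190 to 1440 CPM in controls and from 1280 to 2720 CPM at 1000 mkd. Gpnmb, a glycoprotein gene of macrophages and other lysosome-rich cells that is named after its values were seen, was at 19.1, 28.3, 22.8, 19.2 and 17.3 CPM in controls and 41.7, 65.4, 39.7, 108 and 94.8 CPM at 1000 mkd (3.28-fold, adjusted p = 0.0253). T and NK cell markers had a median of 0.69 over 13 tested genes and a sum of 27.1 to 59.5 against 47.3 to 105 CPM, again with 0 called by edgeR, 6 at an unadjusted p under 0.05 and 1 called by DESeq2. All 6 tested endothelial markers and all 5 cholangiocyte markers had positive fold changes (medians 0.27 and 0.22), and edgeR and DESeq2 called 0 in both, with 0 at an unadjusted p under 0.05. B cell markers had a median of 0.13 over 3 tested genes, with 0 at an unadjusted p under 0.05. Neutrophil markers had a median of -0.38 over 4 tested genes, with 1 higher and 0 lower at that level. Both lists had few reads, with summed levels of at most 2.26 and 5.91 CPM. In the neutrophil list Mpo, Camp and Elane had no more than 3 counts in any of the 10 libraries. Erythroid markers summed to 68.4 to 214 CPM in controls and 28.5 to 74.9 CPM at 1000 mkd. Of 6 tested, 2 had a positive fold change, 0 were called by edgeR, 3 were lower at an unadjusted p under 0.05, and the median was -0.66. Hbb was at 203 CPM in control rat 5 and 53.7 to 107 CPM in the other controls. The part of these cell types in the gene changes was not tested.

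In fatty acid synthesis, all 21 tested members had a negative fold change, 3 were called lower (Fasn, Acly and Acaca), 13 had an unadjusted p under 0.05, and the median log2 fold change was -0.66. Acaca (acetyl-CoA carboxylase 1) was at 34.6, 40.8, 65.5, 34.0 and 32.5 CPM in controls and 15.2, 17.9, 20.0, 15.6 and 22.8 CPM at 1000 mkd. The groups did not overlap, and the level fell to 0.441 of control (log2 -1.18, SE 0.26, adjusted p = 0.0249). Control rat 3 stood apart in this pathway. Fasn (fatty acid synthase) was at 87.3, 193, 1490, 54.7 and 90.3 CPM in controls and 47.6, 54.5, 94.4, 55.4 and 36.2 CPM at 1000 mkd, so the groups overlapped and the fitted log2 change of -2.74 (adjusted p = 0.0348) rested on 1 rat. Without control rat 3 it was -0.88 (adjusted p = 0.228). Acly (ATP citrate lyase), at 109, 150, 1050, 116 and 121 CPM in controls and 64.7 to 108 CPM at 1000 mkd, likewise went from -1.94 (adjusted p = 0.035) to -0.63 (adjusted p = 0.193). Tkfc, a kinase of fructose metabolism with 603 CPM in control rat 3, went from -1.50 (adjusted p = 0.0257) to -0.95 (adjusted p = 0.0507). Acaca without that rat was still called, at -0.96 (adjusted p = 0.034), and the median of the list was -0.63.

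The enzymes next to these in the pathway pointed the same way without passing in edgeR. Scd1 (stearoyl-CoA desaturase) was at 443, 136, 904, 416 and 1510 CPM in controls and 217, 90.6, 65.2, 24.8 and 117 CPM at 1000 mkd (adjusted p = 0.0536). The groups overlapped through control rat 2 and treated rat 1 alone. Srebf1, the gene of the SREBP-1 transcription factor, was at 116 to 305 CPM in controls and 45.4 to 89.2 CPM at 1000 mkd with no overlap (adjusted p = 0.0559). Dgat2, which makes triglyceride, was at 1080 ± 89.9 and 741 ± 115 CPM and had an adjusted p of 0.0429, but its 0.684-fold change was under the 1.5-fold limit. Pklr, the liver pyruvate kinase, was at 949 CPM in control rat 3, 148 to 242 CPM in the other controls and 82.7 to 213 CPM at 1000 mkd (adjusted p = 0.0742).

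All 25 tested members of the cholesterol synthesis list had a negative fold change and 20 had an unadjusted p under 0.05, with a median of -0.83, but 1 was called in the main fit, against 8 members by DESeq2 and 5 with the 10 libraries fitted alone. Fdps, farnesyl diphosphate synthase (356 ± 103 and 139 ± 38.0 CPM, adjusted p = 0.0855) and Acat2, an acetyl-CoA acetyltransferase (4.54 and 2.19 CPM, adjusted p = 0.0707) were below all controls in every treated rat. With 1 rat left out the list median stayed between -0.92 and -0.70.

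Other metabolic genes that fell were scattered over several pathways. Gbe1, the glycogen branching enzyme, was at 181, 123, 92.4, 179 and 223 CPM in controls and 87.2, 66.9, 82.7, 85.4 and 84.8 CPM at 1000 mkd, with no overlap (0.510 of control, adjusted p = 0.0089). Slc27a5, the bile acid-CoA ligase, was at 1460, 1280, 1300, 1180 and 1470 CPM against 807, 821, 895, 633 and 786 CPM (0.589 of control, adjusted p = 0.0189), and was the 1 member of 25 tested bile acid genes that was called. Slc10a1, the bile salt uptake carrier, was at 868 ± 368 and 477 ± 64.6 CPM (adjusted p = 0.0707), below all controls in every treated rat. Tkt (transketolase), the 1 called member of 17 NRF2 targets, fell to 0.650 of control, and Dao (D-amino acid oxidase) to 0.505. The 10 largest falls with no overlap also held Nptx2 (neuronal pentraxin 2, log2 -1.52), Lhx8 (a LIM homeobox factor, -1.51), Smim1 (0.499 of control) and Prss32 (a serine protease, -0.96). Of 56 tested genes of amino acid catabolism and the urea cycle, 9 had a positive fold change, 15 were lower at an unadjusted p under 0.05, and neither edgeR nor DESeq2 called any. In this list Glud1 (glutamate dehydrogenase) came closest, with 1310 and 987 CPM (adjusted p = 0.0447, 0.756-fold). The list does not cover all such enzymes: Dao, above, and Aadat lie outside it and were called lower. Aadat, an aminoadipate aminotransferase gene named after its values were seen, was at 216 and 132 CPM (edgeR adjusted p = 0.035). Among conjugation enzymes the called members Sult1c3, a sulfotransferase, and Ugt2b1, a glucuronosyltransferase, overlapped between groups: Ugt2b1 was at 373, 110, 33.5, 244 and 181 CPM in controls and 55.7, 23.9, 70.7, 81.9 and 24.8 CPM at 1000 mkd.

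The largest fitted falls, of Aldh1a7 and Abhd3, rested on 1 rat. Aldh1a7, an aldehyde dehydrogenase gene, was at 66.3 CPM in control rat 1, 0.204 to 0.461 CPM in the other controls and 0.320 to 1.20 CPM at 1000 mkd. Abhd3, a lipase gene, was at 32.5 CPM in the same rat and 0.245 to 0.400 CPM in the other controls, against 0.257 to 0.505 CPM at 1000 mkd. Without control rat 1 the log2 changes of -4.37 and -4.22 became 0.87 (adjusted p = 0.468) and 0.13 (adjusted p = 0.896).

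Several lists held no DEG by edgeR. The 32 tested xenobiotic P450s and the 15 clock genes held no DEG by edgeR (2 and 0 had an unadjusted p under 0.05, and DESeq2 called 1 and 0). Of 38 PPARalpha targets none was called, with 3 at an unadjusted p under 0.05, 1 called by DESeq2 and a median of 0.04. Acot1, an acyl-CoA thioesterase of that list, was at 0.156, 1.54, 9.51, 0.652 and 1.20 CPM in controls and 6.61, 3.47, 18.9, 30.4 and 18.3 CPM at 1000 mkd (log2 2.59, SE 1.09, adjusted p = 0.182), where control rat 3 lay above 2 treated rats. Hepatocyte markers had a median of -0.33 over 10 genes, with 2 positive, 4 lower and 0 higher at an unadjusted p under 0.05 and 0 called by edgeR or DESeq2. Their sum was 197000 to 381000 CPM in controls and 165000 to 210000 CPM at 1000 mkd, and Alb was at 280000 and 297000 CPM in control rats 4 and 5. Of 19 tested acute phase genes 2 had a positive fold change, the median was -0.36, and 7 were lower and 0 higher at an unadjusted p under 0.05. Of 27 tested heat shock and ER chaperone genes 3 had a positive fold change, the median was -0.23, and 4 were lower and 1 higher at that level. Neither list held a DEG by edgeR, and DESeq2 called 1 member in each.

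Of 48 tested interferon response genes 32 had a positive fold change, 1 was called and the median was 0.17. Oasl2, an oligoadenylate synthetase-like gene, was at 4.51, 5.31, 4.15, 5.46 and 5.16 CPM in controls and 9.57, 7.61, 16.8, 15.0 and 24.2 CPM at 1000 mkd, with no overlap (2.97-fold, adjusted p = 0.029). Epsti1 (2.60 and 5.27 CPM, adjusted p = 0.0811) and Oas2 (2.37 and 5.63 CPM, adjusted p = 0.12) did not pass. Ifit1, an interferon-induced antiviral gene, was at or below 0.2 CPM in all 10 rats, which is too few reads for a fold change. A match to the interferon-stimulated response element (ISRE core, searched on both strands) was present in the Oasl2 promoter and in 3.92% of all promoters of the table, or 3.05% of those of tested genes.

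**Figure D4:**
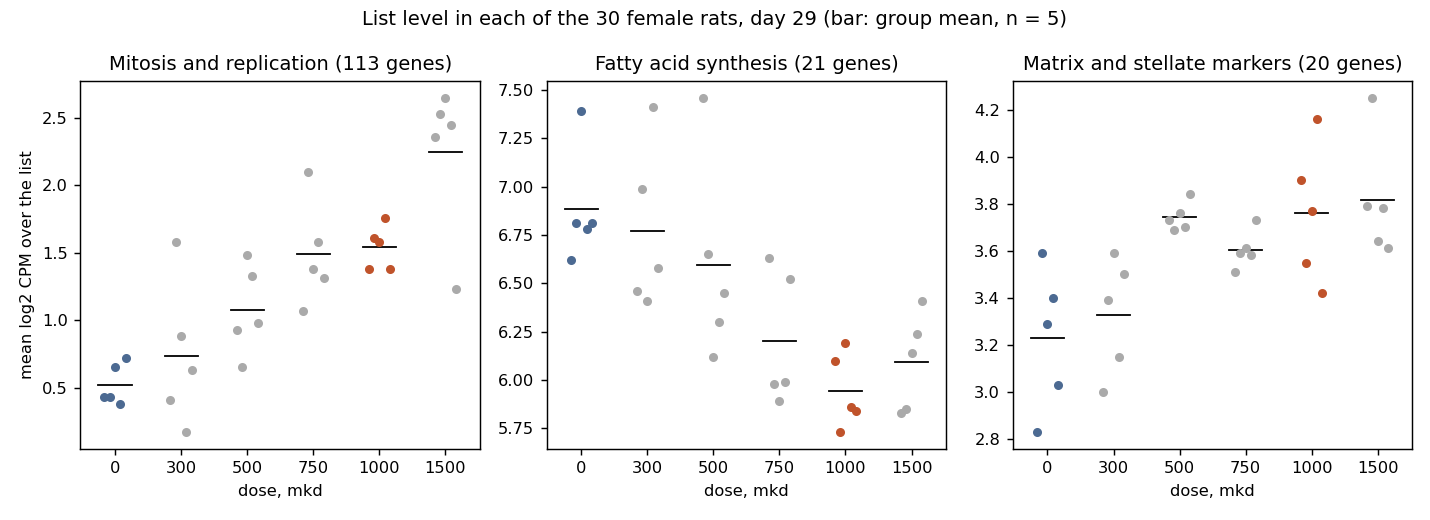
Mean log2 CPM over 3 gene groups (vertical axis) in each of the 30 female rats of day 29 by dose in mkd (horizontal axis, categories); points are rats and bars group means of 5. For mitosis and replication the 1000 mkd rats lie at 1.38 to 1.76 and the controls at 0.38 to 0.72, with no overlap, and control rat 3 is the high control point at 7.39 for fatty acid synthesis.

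The doses were all read against the same 5 control rats. At 750 mkd 21 genes were called (0.183%) and at 1500 mkd 1498 (13.1%). The median log2 fold change of the mitosis list was 0.43, 0.95, 1.41, 1.51 and 2.57 at 300, 500, 750, 1000 and 1500 mkd. The replication list read 0.12, 0.07, 0.50, 0.56 and 1.04. The fatty acid synthesis list read -0.15, -0.25, -0.59, -0.66 and -0.69, and the cholesterol list 0.08, 0.44, -0.65, -0.83 and -0.27. For stellate markers the medians were 0.15, 0.87, 0.51, 0.81 and 0.55. Median values over all genes lay between -0.01 and 0.00 at each dose.

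**Figure D5:**
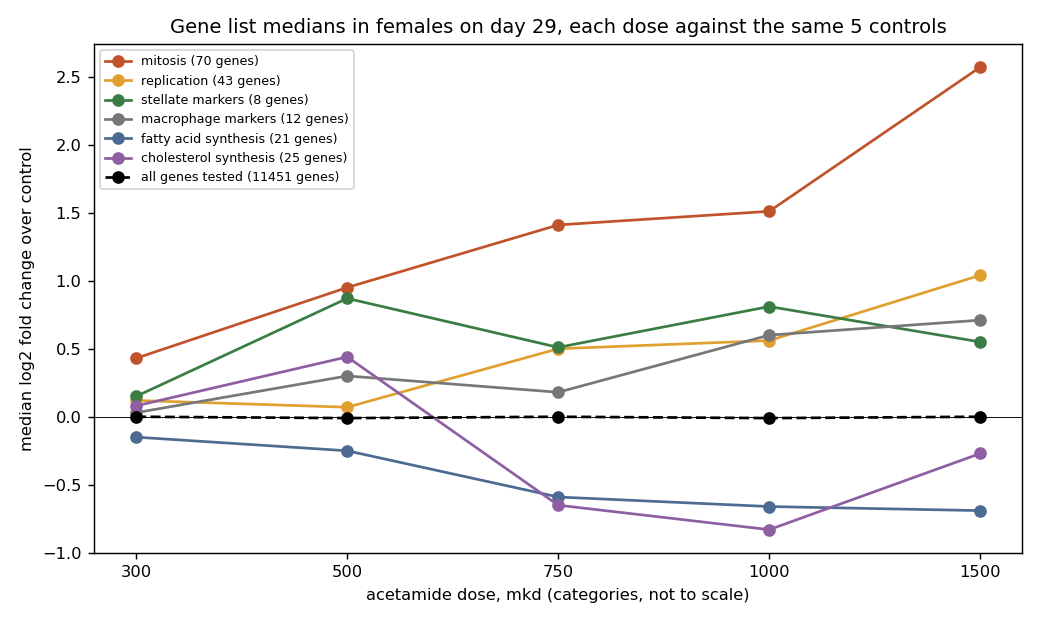
Median log2 fold change over the shared controls (vertical axis) of 6 gene lists and of all genes tested at each dose in females on day 29 (horizontal axis, categories not to scale). The mitosis line climbs to 1.51 at 1000 mkd and 2.57 at 1500 mkd, while the cholesterol line is lowest at 1000 mkd, at -0.83.

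A direct test of 1500 against 1000 mkd called no gene among 11451 by edgeR (0%), although 1228 had an unadjusted p under 0.05, and DESeq2 called 35. Mki67 was 0.95 higher on the log2 scale at 1500 than at 1000 mkd (SE 0.33). Abcb1b was 0.44 lower at the higher dose (log2 -0.44, SE 0.48), within its error. Adgrg2, a G protein-coupled receptor gene, was at 0.0623 and 0.227 CPM in controls and at 1000 mkd (adjusted p = 0.283) and was 3.13 higher on the log2 scale at 1500 mkd (SE 0.65). Leaving out rat 5 at 1500 mkd raised the count to 93, rat 1 to 9, rat 4 to 4, and rat 3 at 1000 mkd to 1.

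The same dose was also read on day 8 in other females and on day 29 in males, each against its own 5 controls. In females on day 8, 158 of 11497 genes were called (1.37%). Of these, 46 were among the 182 DEGs of day 29, which is 25.3% of the day 29 list and 29.1% of the day 8 list, and all 46 had the same sign. Of the 179 day 29 DEGs tested on day 8, 163 had the same direction there, called or not. The share of matching directions over all genes tested was not counted, so this number has no background to be read against. The mitosis median on day 8 was 2.17. Abcb1b stood at 4.01 on the log2 scale on day 8 (SE 0.52, adjusted p = 0.000234) and Mki67 at 2.03 (SE 0.49, adjusted p = 0.0314). The connective tissue genes had small values on day 8, with log2 changes of -0.11 for Col3a1, -0.26 for Col5a1, -0.12 for Mmp2, 0.25 for Bgn and 0.39 for Pdgfrb, none of them called. The difference in response between days was tested in 1 model: no gene passed among 11657 by edgeR, 698 had an unadjusted p under 0.05, and DESeq2 also called 0. The log2 fold change of Col5a1 was 1.23 higher on day 29 than on day 8 (SE 0.35, adjusted p = 0.805).

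In males on day 29, 311 of 11279 genes were called (2.76%), and 7 of them were among the 182 DEGs of the females (3.85% of the female list, 2.25% of the male list), all with the same sign. They were Acaca, Gpnmb, Lama5, Mfap3l, Pkmyt1, Pth1r and Susd2. Of the female DEGs, 179 were tested in males and 168 had the same direction there, called or not, again without a background share. The labels put the male control rats and the treated males in different exposure series, so dose and series cannot be told apart there. The mitosis median in males was 1.24, and Mki67 read 1.34 (SE 0.69, adjusted p = 0.214). The test of the difference in response between sexes called no gene among 11621 by edgeR, with 1379 at an unadjusted p under 0.05 and 1 called by DESeq2. The log2 fold change of Abcb1b was 1.82 higher in females than in males (SE 0.88, adjusted p = 0.41), and that of Fasn 2.21 lower (log2 -2.21, SE 0.76, adjusted p = 0.3). The Fasn difference rested largely on control rat 3 of the females. Without that rat the female log2 fold change of Fasn was -0.88, against -0.50 in males. Among genes listed because the study names them, Prom1 (prominin 1) read -1.35 in females and 0.83 in males, Slc7a1, a cationic amino acid carrier, 0.15 and -1.52, and Cyp17a1, a steroid hydroxylase, 0.22 and -0.47, and none was called in either sex. Hebp2, a heme-binding protein gene, was at 2.64 ± 2.27 and 1.79 ± 0.591 CPM in the females (SD, n = 5 each, adjusted p = 0.564).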

How the data were processed

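RNA-Seq gene counts from 145 rat liver libraries were deposited as whole-number counts per gene. Per the study's methods, the authors trimmed single-end stranded mRNA reads with Trimmomatic, aligned them with Bowtie2 to Rn6 and counted reads per gene with HTSeq. No versions were given in the sources used here.

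Groups came from the labels. The table held 17337 genes, and 5 summary lines were left out. The deposited counts of the 30 day 29 females (6 groups of 5) were filtered with filterByExpr, scaled by TMM and fitted in 1 quasi-likelihood model with edgeR 4.0.16 in R 4.3.3, which left 11451 genes. Genes were called at 1.5-fold and adjusted p of 0.05. Levels are TMM-scaled CPM, and log2 levels used a prior count of 2. DESeq2 1.42.0, DESeq2 size factors, other count filters, a replicate block, a fit of the 10 libraries alone and leaving out each rat were alternatives. Leaving out control rats 4 and 5 was added after the data were seen. Simulated 1000 mkd and control counts over 11366 genes gave calls for 82 of 100 genes changed 2-fold, 98 of 100 changed 4-fold and 12 unchanged genes. The changed genes were drawn only from genes above a minimum mean count, so these shares do not cover genes of few reads.

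The members and gene lists were chosen with earlier results of these data known, and some lists hold genes that the study picked from these samples. Named genes were the 10 called rises and the 10 called falls of largest size with a mean of at least 1 CPM and no overlap between groups, the called list members, up to 3 further members per list by smallest p, and the genes the study names. Some genes that meet this rule are not reported here. Other names are said to be chosen after their values were seen. Replicate numbers did not pair the rats: deviations of same-numbered rats correlated at -0.05, 0.10, 0.28, 0.26 and 0.06. No 2 of the 10 libraries were identical. p-values measure the spread between these rats. Promoter sequences were from RefSeq GRCr8.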

Additional observations from a re-analysis of the deposited data

Results flagged for a closer look

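For most genes named in the text, the highest or lowest of 5 rats was set against the other 4 on the log2 scale, and 16 of 194 groups held a rat standing apart by Dixon's criterion. Chance alone flags about 1 group in 20.

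Control rat 3 stood high for genes of sugar and fat metabolism. Acly was at 1050 CPM against 109 to 150 CPM in the other controls, Pklr at 949 CPM against 148 to 242 CPM, and Tkfc at 603 CPM against 139 to 199 CPM. Lhx8 was at 19.4 CPM in the same rat against 5.38 to 7.54 CPM.

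Control rat 1 stood apart for 6 genes. Aldh1a7 was at 66.3 CPM against 0.204 to 0.461 CPM and Abhd3 at 32.5 CPM against 0.245 to 0.400 CPM. Glud1 was at 1730 CPM against 1160 to 1220 CPM. The red cell anion exchanger Slc4a1 was at 11.9 CPM against 1.59 to 2.75 CPM, and Mcm3 was low at 1.28 CPM against 2.04 to 2.32 CPM. Cd44 was low too, at 2.45 CPM against 4.00 to 4.65 CPM.

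Control rat 4 was low for Knstrn, at 0.163 CPM against 0.419 to 0.600 CPM. Control rat 5 was low for Brca2, at 1.44 CPM against 2.81 to 3.31 CPM. Treated rat 2 was low for Cyp2c12, at 1540 CPM against 2710 to 3410 CPM, for Gbe1, at 66.9 CPM against 82.7 to 87.2 CPM, and for Hebp2, at 0.803 CPM against 1.74 to 2.29 CPM. Treated rat 3 was high for Mfap3l, at 3.57 CPM against 2.22 to 2.38 CPM. The causes were not tested.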

How the results depend on the processing

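Against the 182 genes called at 1000 mkd, DESeq2 called 461 (352 higher and 109 lower), of which 179 were shared. Leaving out 1 rat gave 13 to 424, and leaving out control rats 4 and 5 gave 21, of which 57.1% were higher against 77.5% with all rats. The replicate block gave 209 calls, 170 of them shared, although the replicate numbers did not pair the rats. DESeq2 size factors gave 178 calls, no count filter 152, a minimum of 10 counts in every rat 140, and the 10 libraries alone 128, of which 82 were shared. For 1500 against 1000 mkd, DESeq2 called 35 genes and leaving out 1 rat gave 0 to 93. For the difference in response between days and between sexes, leaving out 1 rat gave 0 to 1 in each, and DESeq2 called 1 gene between sexes. Leaving out 1 rat moved the log2 fold change of Aldh1a7 from -4.70 to 0.87 and the log2 fold change of Abhd3 from -4.55 to 0.13, both positive only without control rat 1. It moved Chek2 between -0.02 (without control rat 2) and 0.28, and Hebp2 between -0.76 and 0.12 (without control rat 5). Without control rats 4 and 5, Slc7a1 read -0.06 and Hebp2 0.02. The cause was not tested. Of the genes called higher, 49 had a control mean under 1 CPM, where few reads stand behind each value.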

Other observations

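Some list members next in order of p, not described above, did not pass the test. The hyaluronan receptor gene Cd44 was at 4.06 ± 0.943 CPM in controls and 9.07 ± 3.52 CPM at 1000 mkd (SD, n = 5 each, edgeR adjusted p = 0.0536), with 5 of 5 treated rats above all controls. Akr7a3, an aldo-keto reductase gene of the NRF2 list, was at 25.0 ± 5.47 and 43.3 ± 6.71 CPM (edgeR adjusted p = 0.0796), again with 5 of 5 above. Hgf, the hepatocyte growth factor gene, was at 12.7 ± 4.67 and 23.9 ± 6.54 CPM (edgeR adjusted p = 0.0683), with 4 of 5 above. Of 19 tested chemokine genes 15 had a positive fold change, with a median log2 fold change of 0.33, 4 higher and 1 lower at an unadjusted p under 0.05 and 0 called by edgeR or DESeq2.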
